A study of Mus musculus with 6 samples.

Results

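The collagen genes of the lung were followed in mouse embryos that lack Dppa2. The set holds 32 collagen genes, taken by symbol from the probes of the arrays, which named 32301 genes or transcripts in all. A probe matched 30 of the 32 genes, with 50 probes among them. No probe matched Col6a3 or Col12a1, and these genes were not analysed here. Whole lungs were taken at E18.5, shortly before birth, and the RNA of each embryo was hybridised to 1 Agilent array with the dye Cy3. The 3 knockout (KO) embryos were 15-1Flox/Flox and 15-2-/-, and the 3 wild type (WT) embryos were 15-1+/+ and 15-2+/+. ECAT15-2 is Dppa2 and ECAT15-1 is its neighbour and relative Dppa4, so the floxed Dppa4 alleles came with the Dppa2 null alleles in each KO embryo. The parents were 15-1+/Flox, 15-2+/- mice of mixed background. That line began with 129Sv embryonic stem cells, was mated with C57/BL6 and was crossed once with a Cre or FLPe transgenic line whose background is unknown. The labels name neither the litter nor the sex of an embryo. The raw file names carry a number that is shared by KO 1 and KO 2, by KO 3 and WT 3, and by WT 1 and WT 2. What it marks is not given in the sources used here, and it may be a litter or a parent. With that number as a block, KO and WT are compared on KO 3 and WT 3 only, so such a fit cannot decide the part of the number. P-values measure the spread between these embryos only.

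Collagens are secreted proteins whose chains wind into a rope-like helix, and each type has its own assembly. Types I, III and V build the fibrils that give interstitial tissue its tensile strength. Type IV forms the sheet-like network of basement membranes, on which lung epithelium and capillaries lie, and type VI forms beaded microfibrils around cells. Types II, IX, X and XI belong to cartilage, which in the lung lies in the wall of the trachea and large airways. A whole lung holds all of these tissues, and fewer cells of a type and less RNA per cell cannot be told apart in it.

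Values below are log2 levels, the log2 intensity of a probe relative to the 75th percentile of its array, and differences are KO minus WT on that log2 scale. A gene was called at a limma adjusted p under 0.05. Between 63.3% and 68.8% of the probes per array lay well above background. Dppa2 had levels of -4.88, -4.92 and -3.99 in KO lungs and of -3.16, -3.45 and -3.49 in WT lungs. That difference of -1.23 (SE 0.26) was not called (limma adjusted p = 0.0619), and its probe lay above background on all 6 arrays. The place of that probe relative to the deletion is unknown, so the value does not check the labels. The 3 KO arrays and WT 3 had Xist signal, and WT 1 and WT 2 had signal from Y-linked genes instead, so the sexes were unevenly divided between the groups. WT 1, WT 2 and KO 3 shared a slide, KO 1 and KO 2 shared another, and WT 3 lay on a slide of its own. All 13 epithelial markers of lung passed the background filter. Of 11 cardiac muscle markers tested, 6 fell in KO lungs, with summed levels of 37.0 to 50.7 in KO lungs and 63.1 to 74.4 in WT lungs (intensity relative to the 75th percentile). Their part in the results below was not tested.

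Of the 32 collagen genes, 29 could be tested, each with a probe well above background on all 6 arrays. Col10a1, the collagen of hypertrophic cartilage, was not well above background on any array. Col9a2, a chain of the type IX collagen of cartilage, rose in KO lungs, and no collagen gene fell. Over all 19867 features tested, 1.34% were called, 0.725% higher in KO lungs and 0.619% lower. That is 144 higher and 123 lower features, quantile normalization gave 59 higher and 138 lower, and scaling to the median gave 82 higher and 240 lower. With the 75th percentile over probes above background there were 288 higher and 136 lower. The share of called collagen genes, 1 of 29, cannot be set apart from that background. An unadjusted p under 0.05 was seen for 14 of the 29 genes, against 25.8% of all features. KO and WT values did not overlap for 13 genes with higher and 3 genes with lower KO levels, where the background was 16.5% and 15.0% of all features. The median difference was 0.11 over the collagen genes and 0.00 over all features. With arrays scaled to their median it was -0.03, and all features then had -0.14. In the reported scaling 17 of the 29 differences were positive, against 9942 of all 19867 features. Every collagen gene has a symbol, and of the 13939 features with a symbol 6018 had positive differences, with a median of -0.04 and 143 called.

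**Figure D1:**
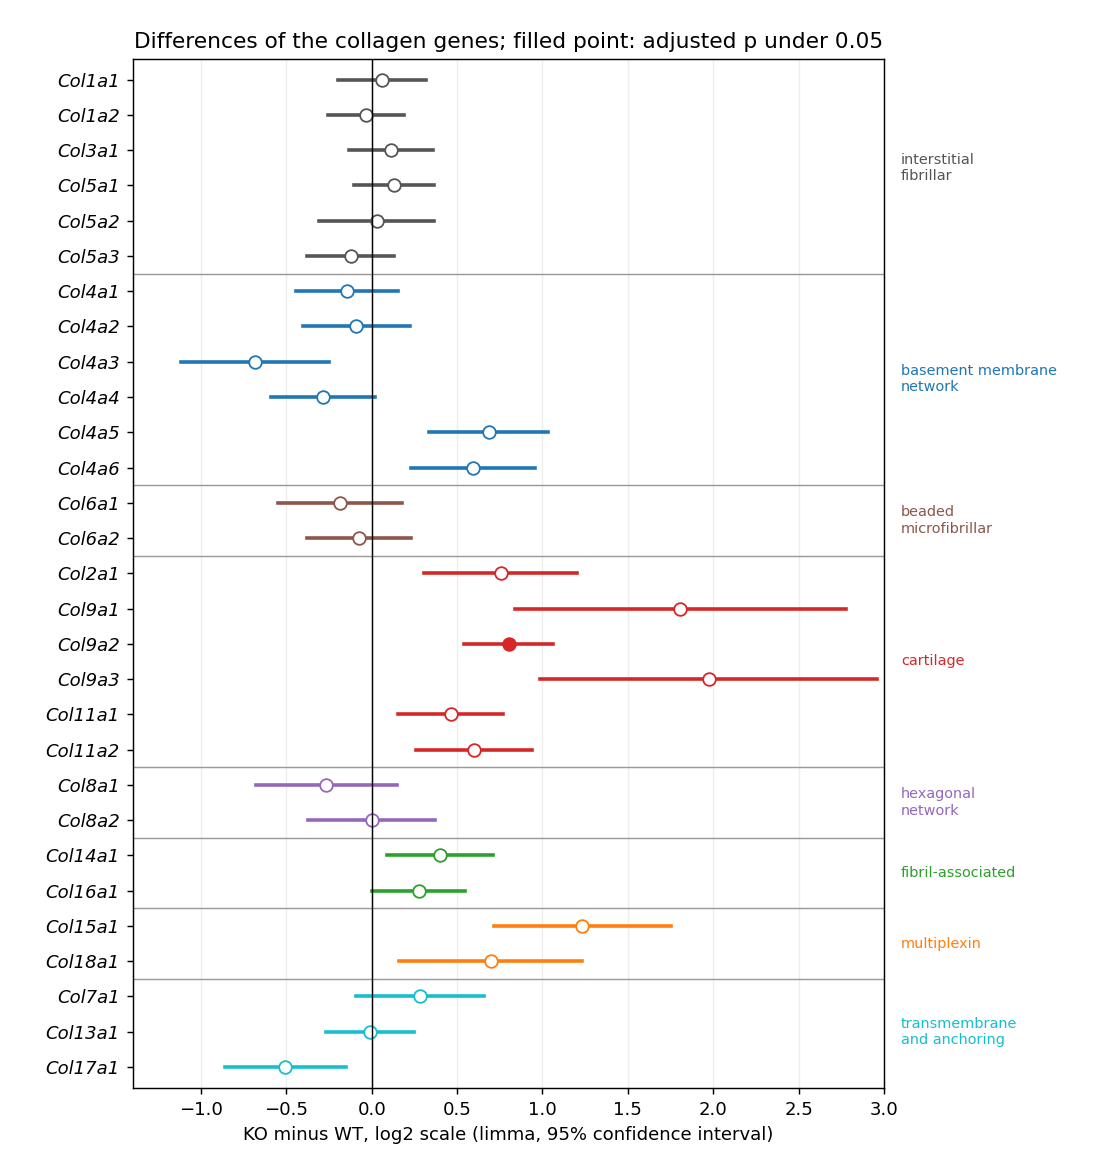
Difference between KO and WT lungs for the 29 collagen genes tested, KO minus WT on the log2 scale with its 95% confidence interval (limma, n = 3 embryos each), in blocks by class. Col9a2 is the filled point at 0.80, the 6 interstitial fibrillar genes lie between -0.12 and 0.13, and the 6 cartilage genes between 0.46 and 1.97.

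The interstitial fibrillar collagens, the bulk of lung collagen, differed little. None of the 6 genes was called, and their differences ran from -0.12 for Col5a3 to 0.13 for Col5a1, with a median of 0.04 that was -0.10 with arrays scaled to their median. Col1a2, the second chain of type I collagen, had levels of 6.09, 6.09 and 6.05 in KO lungs and of 6.14, 6.09 and 6.10 in WT lungs. The groups overlapped. Its difference was -0.03 with a 95% confidence interval from -0.26 to 0.19 (limma adjusted p = 0.845). Col1a1, the first chain of type I, had 5.28, 5.49 and 5.33 in KO lungs and 5.24, 5.39 and 5.28 in WT lungs, a difference of 0.06 with an interval from -0.20 to 0.32. Its other probes gave -0.24 and -0.05. Col3a1, which makes the thin fibrils of distensible tissue, had 5.36, 5.55 and 5.44 in KO lungs and 5.37, 5.38 and 5.28 in WT lungs. The KO values reached higher and the groups overlapped (difference 0.11, limma adjusted p = 0.529, other probe 0.23). Type V collagen starts fibrils and sets their width. Its Col5a1 chain was the single gene of the class whose groups did not overlap, with 3.08, 3.09 and 3.22 in KO lungs and 3.03, 2.98 and 2.98 in WT lungs (limma adjusted p = 0.432). Col5a2 differed by 0.03.

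The upstream bases of Col1a2 are shown as those of a gene whose difference was near 0, to set beside the genes below. The 250 bases before each start come from RefSeq on GRCm38.p6 and are written 5′ to 3′ on the strand of the gene. Capitals mark 4 motifs searched on both strands. The TATA box was taken as TATAAA. The CCAAT box was taken as those 5 letters. The GC box was taken as GGGCGG. The SOX core was taken as ACAAAG or, in another form, as ACAATG. In the windows printed here no match overlaps another. Col1a2 (chr6:4505368-4505617, plus strand) had GC boxes 205 and 188 bases and a CCAAT box 109 bases before its start.
Col1a2: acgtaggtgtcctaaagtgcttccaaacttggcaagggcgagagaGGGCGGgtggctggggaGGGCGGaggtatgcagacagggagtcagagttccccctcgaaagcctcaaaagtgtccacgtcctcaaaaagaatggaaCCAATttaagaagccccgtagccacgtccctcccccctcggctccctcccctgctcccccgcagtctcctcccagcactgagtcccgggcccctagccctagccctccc

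The basement membrane collagens had differences of either sign by chain, and none of the 6 was called. Col4a1 and Col4a2, which pair up in nearly every basement membrane, differed by -0.14 and -0.09 (limma adjusted p = 0.506 and 0.698), and their groups overlapped. Another Col4a1 probe gave -0.16, and another Col4a2 probe 0.04. Col4a3 and Col4a4 join Col4a5 in the tougher network of the kidney filter and the alveolar wall. Col4a3 had levels of -0.53, -0.95 and -0.84 in KO lungs and of 0.22, -0.13 and -0.36 in WT lungs. Every KO value lay below every WT value. The difference of -0.68 (SE 0.18) was not called (limma adjusted p = 0.0902), and at a second probe it was -0.57 with overlapping groups. Without WT 3 it was -0.82 and was called (limma adjusted p = 0.0458). In that fit 9.66% of all features were called, against 1.34% as reported. Its KO arrays had Xist signal and its WT arrays Y-linked signal, so genotype and sex cannot be told apart there. Col4a4 had 0.96, 1.07 and 1.24 in KO lungs and 1.55, 1.31 and 1.27 in WT lungs, also without overlap, and differed by -0.28 (limma adjusted p = 0.216).

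The X-linked pair Col4a5 and Col4a6 had higher levels in KO lungs. Col4a5 had -1.81, -1.37 and -1.46 in KO lungs and -2.16, -2.37 and -2.17 in WT lungs, a difference of 0.69 (SE 0.15, limma adjusted p = 0.0646). Col4a6, which with Col4a5 lines smooth muscle and airways, had 1.25, 1.32 and 1.26 in KO lungs and 0.86, 0.36 and 0.83 in WT lungs, a difference of 0.59 (SE 0.15, limma adjusted p = 0.0867). The groups did not overlap for either gene. Other Col4a6 probes gave 0.82 and 0.19, both without overlap. These genes lie on the X chromosome, and sex was unbalanced between the groups. WT 3 was the single WT array with Xist signal, so sex and genotype can be told apart on that array only. The KO mean minus WT 3 was 0.62 for Col4a5 and 0.45 for Col4a6. Within the shared slide, KO 3 minus the mean of WT 1 and WT 2 was 0.80 for Col4a5 and 0.65 for Col4a6. With a term for Y-linked signal the limma adjusted p was 0.5 for Col4a5 and 0.569 for Col4a6. The part of sex in both differences was not tested beyond these values.

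The starts of Col4a5 and Col4a6 lie 1343 bases apart, head to head, and their upstream bases are shown because the pair shares this stretch and had differences of the same sign. Col4a5 (chrX:141475169-141475418, plus strand) had a CCAAT box 196 bases and a GC box 30 bases before its start. Col4a6 (chrX:141474077-141474326, minus strand) had a GC box 21 bases before its start, written CCGCCC because it lies on the other strand. A match describes the letters and is no sign that a factor binds there.
Col4a5: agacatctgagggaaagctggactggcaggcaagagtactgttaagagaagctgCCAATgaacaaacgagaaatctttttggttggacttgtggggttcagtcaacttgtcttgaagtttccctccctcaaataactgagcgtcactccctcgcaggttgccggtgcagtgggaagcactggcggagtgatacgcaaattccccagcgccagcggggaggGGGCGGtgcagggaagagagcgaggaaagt
Col4a6: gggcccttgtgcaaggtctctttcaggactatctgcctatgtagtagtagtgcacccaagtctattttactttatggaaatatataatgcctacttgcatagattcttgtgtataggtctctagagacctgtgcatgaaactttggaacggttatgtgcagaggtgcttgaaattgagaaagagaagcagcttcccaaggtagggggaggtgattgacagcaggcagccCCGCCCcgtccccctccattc

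The microfibrillar collagens were not called, and their differences lay within the spread between embryos. Col6a1 had 3.82, 4.10 and 4.31 in KO lungs and 4.30, 4.38 and 4.10 in WT lungs, a difference of -0.19 (limma adjusted p = 0.48, interval -0.55 to 0.18). Col6a2 had 2.96, 3.08 and 3.28 in KO lungs and 3.27, 3.24 and 3.04 in WT lungs, a difference of -0.07 (limma adjusted p = 0.747). The groups overlapped for both genes, and KO 1 was the lowest array for both. The chains of type VIII collagen, which forms hexagonal lattices under endothelium, were not called either. Col8a1, which like Dppa2 lies on chromosome 16, had -1.42, -1.65 and -2.05 in KO lungs and -1.45, -1.33 and -1.54 in WT lungs (difference -0.27, limma adjusted p = 0.37). Its groups overlapped. Col8a2 differed by less than 0.01 in either direction, with an interval from -0.37 to 0.37.

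**Figure D2:**
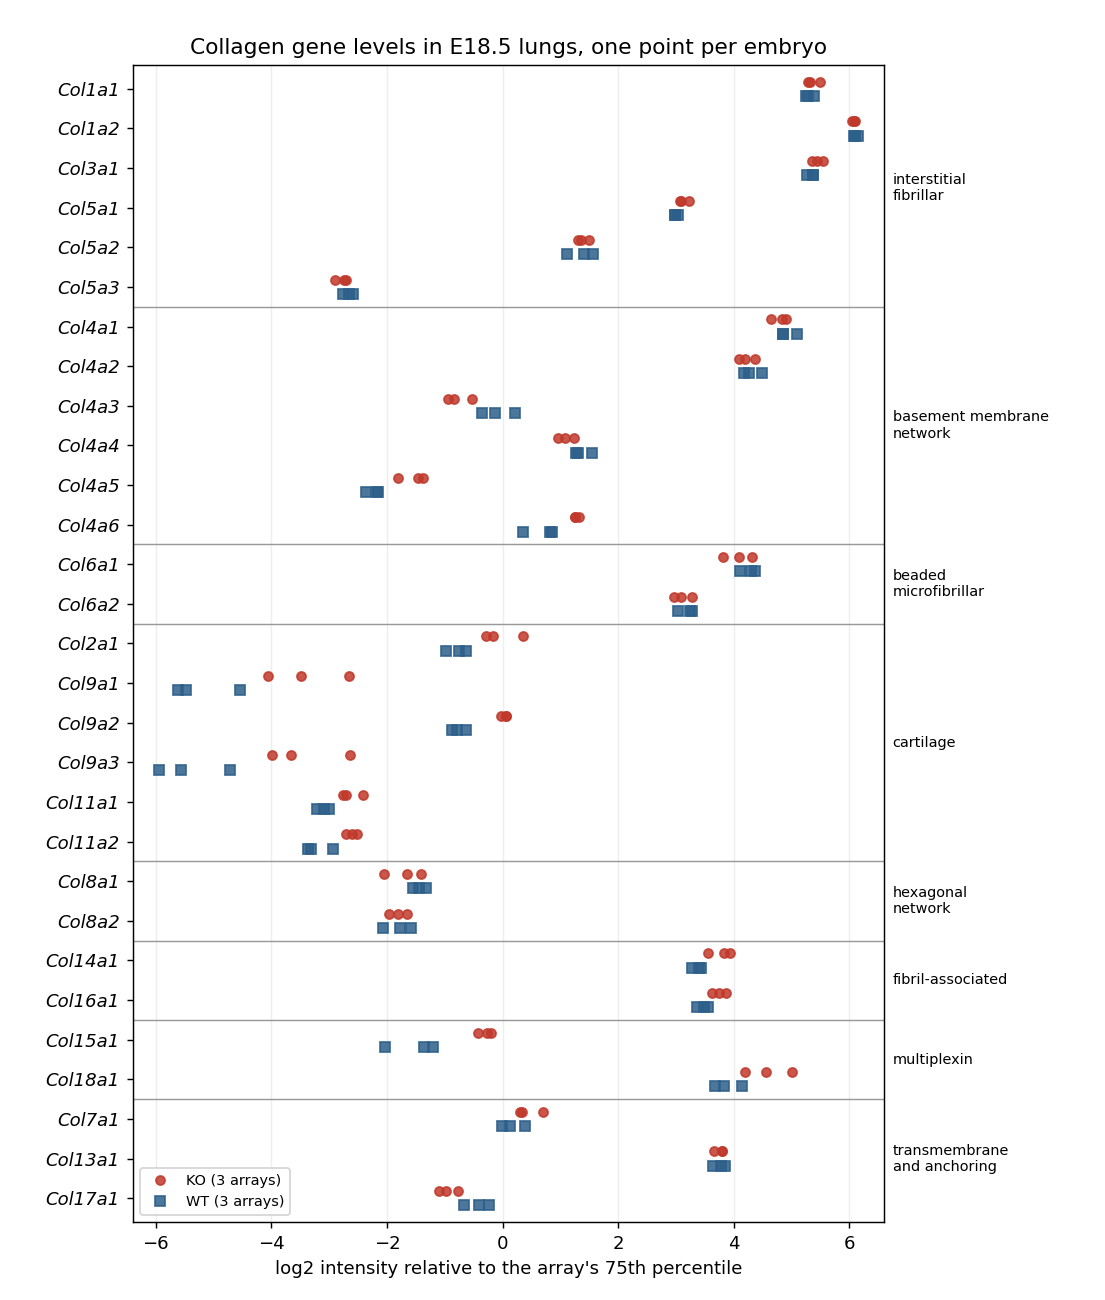
Log2 level of each collagen gene tested on each of the 6 arrays, relative to the 75th percentile of the array, with KO embryos as circles above WT embryos as squares in each row. Levels are to be compared within a row, since each gene has its own probe. All KO points lie right of all WT points for the 6 cartilage genes, Col15a1, Col18a1, Col14a1, Col16a1, Col5a1, Col4a5 and Col4a6, and left of them for Col4a3, Col4a4 and Col17a1.

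The cartilage collagens had higher levels in KO lungs in each of the 6 genes tested, and 1 of them, Col9a2, was called. Their differences ran from 0.46 to 1.97 with a median of 0.78. KO and WT values did not overlap for any of the 6, where the background was 16.5% of all features with higher KO values. Their summed level was 2.34 to 2.72 in KO lungs and 1.40 to 1.48 in WT lungs (intensity relative to the 75th percentile). Col9a2 had levels of 0.06, -0.02 and 0.07 in KO lungs and of -0.88, -0.79 and -0.63 in WT lungs. The KO arrays lay close together and well above the WT arrays. It averaged 0.04 ± 0.05 in KO lungs and -0.76 ± 0.13 in WT lungs (SD, n = 3 each), a rise of 0.80 (SE 0.11, interval 0.54 to 1.06, 1.74-fold, limma adjusted p = 0.029). KO 3 minus the mean of WT 1 and WT 2, on the shared slide, was 0.90, and the KO mean minus WT 3 was 0.66. With slide as a block the limma adjusted p was 0.0996, and with a term for Y-linked signal it was 0.292. The call was lost without WT 1, WT 2, KO 1 or KO 2, at differences of 0.74, 0.79, 0.79 and 0.83. It held without WT 3 (0.87), a fit in which genotype and sex cannot be told apart, and without KO 3 (0.79).

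Col9a1 and Col9a3 encode the partner chains of Col9a2, and type IX collagen coats the fibrils of cartilage. Col9a1 had -2.66, -4.07 and -3.49 in KO lungs and -5.48, -5.61 and -4.54 in WT lungs. Col9a3 had -2.65, -3.67 and -3.98 in KO lungs and -5.56, -5.94 and -4.71 in WT lungs. For both genes KO 1 was the highest array and WT 3 the highest WT array. Their differences of 1.81 (SE 0.41, limma adjusted p = 0.0687) and 1.97 (SE 0.42, limma adjusted p = 0.0632) were 3.50-fold and 3.93-fold and were not called. On the shared slide they were 2.05 and 1.77. Dim probes as a whole leaned the same way: 11398 probes not above background on any array had a median difference of 0.23, and 84.0% of them were positive. Among the 3479 features tested with mean levels from -5.40 to -3.40, the range of these genes, the median difference was 0.19, and 16 had a difference at least as large as that of Col9a1. The part of that lean in the values of Col9a1 and Col9a3 was not tested.

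Col2a1, the main fibril collagen of cartilage, had -0.17, 0.35 and -0.28 in KO lungs and -0.76, -0.63 and -0.98 in WT lungs. The difference was 0.75 (SE 0.19, limma adjusted p = 0.0823), 0.76 at another probe with overlapping groups, and 0.41 on the shared slide. The type XI chains sit inside the type II fibril. Col11a2 had -2.71, -2.60 and -2.52 in KO lungs and -3.37, -3.31 and -2.94 in WT lungs, a difference of 0.60 (SE 0.14, limma adjusted p = 0.0765) that was 0.82 on the shared slide. Col11a1 had -2.42, -2.71 and -2.77 in KO lungs and -3.00, -3.08 and -3.20 in WT lungs, a difference of 0.46 (SE 0.13, limma adjusted p = 0.0981) and 0.27 on the shared slide. Neither was called, and neither had overlapping groups. Against WT 3 alone, the 6 genes differed by 0.33 for Col11a2 up to 1.28 for Col9a3. Without WT 3, Col9a1, Col9a3 and Col11a2 were called as well, at 2.14, 2.32 and 0.73. That fit called 9.66% of all features, and genotype and sex cannot be told apart in it.

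The upstream bases of Col9a2, the called gene, and of Col9a1 and Col11a2 are shown to compare cartilage genes with differences of the same sign. Col9a2 (chr4:121039316-121039565, plus strand) had GC boxes 26 and 14 bases before its start and none of the other motifs. Col9a1 (chr1:24177360-24177609, plus strand) had none of the 4 motifs in this window, and a second start listed further downstream had a CCAAT box 18 bases before it. Col11a2 (chr17:34038888-34039137, plus strand) had a TATA box 143 bases and GC boxes 133 and 38 bases before its start. No motif was common to the 3 windows. SOX proteins drive cartilage genes, and the SOX letters were in 1 of 6 windows of the class, that of Col10a1. They were in 25.2% of all 32851 windows in the RefSeq table. The 6 windows came from 5 genes, since Col9a1 had a second start. RefSeq listed no window for Col2a1 or Col9a3, so these genes were not searched.
Col9a2: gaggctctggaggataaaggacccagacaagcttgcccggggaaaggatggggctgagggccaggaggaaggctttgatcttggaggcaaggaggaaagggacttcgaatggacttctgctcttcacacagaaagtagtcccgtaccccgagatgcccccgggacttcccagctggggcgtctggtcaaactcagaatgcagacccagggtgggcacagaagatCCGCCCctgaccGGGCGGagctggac
Col9a1: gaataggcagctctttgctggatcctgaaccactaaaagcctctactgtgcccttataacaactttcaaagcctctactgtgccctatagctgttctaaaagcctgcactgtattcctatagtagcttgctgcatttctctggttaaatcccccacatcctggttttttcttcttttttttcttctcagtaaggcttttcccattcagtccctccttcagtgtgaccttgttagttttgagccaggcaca
Col11a2: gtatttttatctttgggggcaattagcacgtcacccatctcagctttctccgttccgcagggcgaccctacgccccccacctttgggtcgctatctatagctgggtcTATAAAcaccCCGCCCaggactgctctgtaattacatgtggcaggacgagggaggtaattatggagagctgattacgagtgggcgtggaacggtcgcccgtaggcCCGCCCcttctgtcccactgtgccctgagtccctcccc

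Other genes of cartilage had differences of either sign. Of 17 cartilage markers, 10 were tested, 5 with positive and 5 with negative differences (median 0.04), and their summed level was 7.43 to 11.1 in KO lungs and 8.04 to 9.42 in WT lungs. Acan, the large proteoglycan of cartilage, was called with lower KO values. It was not well above background on any KO array and was above it on all WT arrays, with mean levels of -6.94 in KO lungs and -6.04 in WT lungs. That difference of -0.90 was called (limma adjusted p = 0.0432), and it rests on KO values that were not above background. With the lowest signal called well above background on each KO array in their place, Acan was at least 1.17-fold lower. On KO 1 that signal was -5.72, higher than the WT levels of -6.18, -5.90 and -6.04. KO 1 by itself thus sets no bound. The call was lost with slide as a block, with the file number as a block and with a term for Y-linked signal. In these fits the comparison rests on KO 3 alone, on KO 3 and WT 3, and on WT 3 alone. Their differences were -1.04, -1.04 and -0.89. The call was also lost without any 1 of the arrays other than WT 3, at limma adjusted p from 0.0607 to 0.15. It stood in 8 of 22 alternatives. Chad, which binds cartilage collagen, had -1.52, -0.92 and -1.54 in KO lungs and 0.75, 0.60 and -0.53 in WT lungs (difference -1.60, limma adjusted p = 0.0674). Matn3, a matrilin of growing cartilage, was above background on all KO arrays and on 1 of 3 WT arrays. Its difference of 1.04 (limma adjusted p = 0.0884) thus rests in part on WT values that were not above background. Cytl1 and Comp, named after their values were seen, were above background on all 6 arrays. They differed by 1.33 and 0.98 (limma adjusted p = 0.14 and 0.219), and the groups overlapped for Comp and not for Cytl1. Sox9, the master regulator of chondrocytes, was singled out after its values were seen. It had 0.27, -0.45 and 0.01 in KO lungs and 0.03, 0.21 and -0.19 in WT lungs, with overlapping groups (difference -0.07, limma adjusted p = 0.853). Sox5, Matn1, Cnmd, Snorc, Ucma, Epyc and Cilp were not tested, since no probe of theirs was well above background on every array of either group. How much cartilage tissue the lungs held, and its part in the levels of the cartilage collagens, was not tested.

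**Figure D3:**
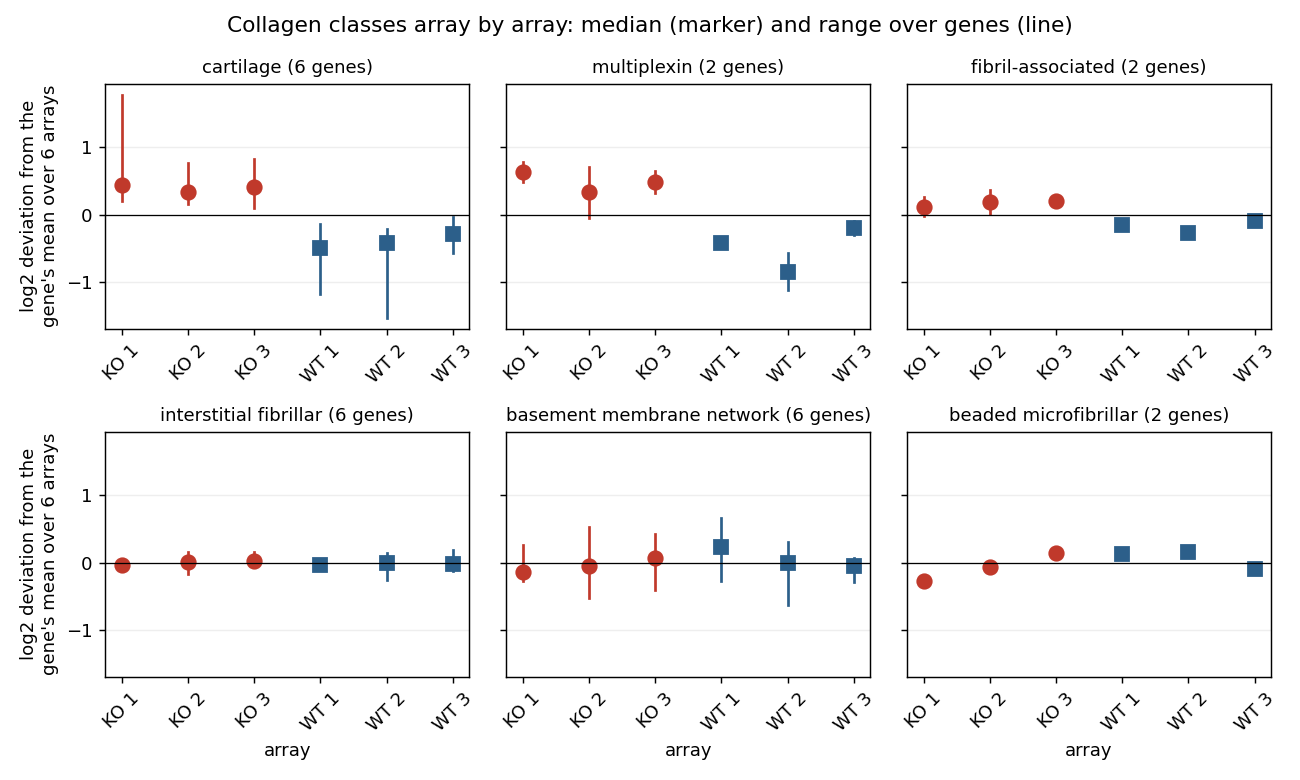
Median (marker) and range (line) over the genes of a collagen class of the log2 deviation from the mean of each gene over 6 arrays, for the KO arrays (circles) and the WT arrays (squares). The cartilage medians are 0.33 to 0.43 on the KO arrays and -0.49 to -0.28 on the WT arrays, while the interstitial fibrillar medians stay between -0.03 and 0.03 on all 6.

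The classes were also set side by side array by array. The median deviation of the cartilage genes from their means was 0.43, 0.33 and 0.41 on the KO arrays and -0.49, -0.41 and -0.28 on the WT arrays. That of the interstitial fibrillar genes stayed between -0.03 and 0.03 on all 6 arrays. The basement membrane genes had medians of -0.14, -0.05 and 0.07 on the KO arrays and of 0.23, -0.01 and -0.05 on the WT arrays. The microfibrillar genes had -0.27, -0.07 and 0.14 on the KO arrays and 0.13, 0.15 and -0.09 on the WT arrays. The multiplexins, with 2 genes, had medians of 0.33 to 0.63 on the KO arrays and of -0.84 to -0.19 on the WT arrays. The fibril-associated collagens, also with 2 genes tested, had 0.12 to 0.21 on the KO arrays and -0.26 to -0.09 on the WT arrays. KO medians lay above WT medians without overlap in these classes and in cartilage, and the medians of the 5 other classes overlapped. Each gene tested in the classes without overlap had all KO values above all WT values. Their medians could thus not overlap and add nothing to the values of the genes. The difference between classes itself was not tested.

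The multiplexins, basement membrane collagens that carry sugar chains, also had higher levels in KO lungs. Col15a1, found under endothelium and around muscle, had -0.43, -0.20 and -0.26 in KO lungs and -1.35, -2.03 and -1.21 in WT lungs. The groups lay far apart, and WT 2 was the lowest. Its difference of 1.23 (SE 0.22, 2.35-fold) was just short of a call (limma adjusted p = 0.052). It was 1.18 at a second probe, 1.43 on the shared slide and 0.91 against WT 3. Without WT 3 it was called, at 1.40, where 9.66% of all features were called and genotype and sex cannot be told apart. Col18a1, whose end piece is endostatin, had 5.01, 4.19 and 4.56 in KO lungs and 3.84, 3.68 and 4.15 in WT lungs. KO 2 lay just above WT 3. The difference was 0.70 (SE 0.23, limma adjusted p = 0.123), with 0.68 at a second probe. The upstream bases of Col15a1 (chr4:47207762-47208011, plus strand) are shown as those of the gene nearest to the threshold outside cartilage, and they held none of the 4 motifs.
Col15a1: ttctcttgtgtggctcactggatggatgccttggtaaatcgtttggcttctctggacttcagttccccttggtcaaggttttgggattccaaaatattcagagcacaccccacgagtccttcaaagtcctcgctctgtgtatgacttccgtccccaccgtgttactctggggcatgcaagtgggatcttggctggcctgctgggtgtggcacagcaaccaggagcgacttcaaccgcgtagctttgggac

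The fibril-associated collagens, which sit on the surface of fibrils, had small positive differences without overlap. Col14a1 had 3.55, 3.93 and 3.84 in KO lungs and 3.40, 3.28 and 3.43 in WT lungs (difference 0.40, limma adjusted p = 0.125). Col16a1 had 3.86, 3.62 and 3.75 in KO lungs and 3.48, 3.37 and 3.56 in WT lungs (difference 0.27, limma adjusted p = 0.189). Among the anchoring and transmembrane collagens, Col17a1 had lower KO levels. It encodes the hemidesmosome collagen of basal cells and had -1.09, -0.76 and -0.98 in KO lungs and -0.41, -0.24 and -0.66 in WT lungs, without overlap. The difference was -0.51 (SE 0.15, limma adjusted p = 0.105), and -0.48 at a second probe with overlapping groups. Basal cell and squamous markers, listed beside it because Col17a1 belongs to those cells, had 4 of 7 negative differences and a median of -0.33. Of these markers, 3 were lower in each KO array than in any WT array, where the background was 15.0% of all features. They were Krt14, Trp63 and Krt5, and Krt14 and Trp63 were above background on 2 of 3 KO arrays. None of the 7 was called, and their part was not tested. Col7a1, the anchoring fibril collagen, differed by 0.28 (limma adjusted p = 0.302). Col13a1, a transmembrane collagen of cell junctions, differed by -0.01 (limma adjusted p = 0.967).

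**Figure D4:**
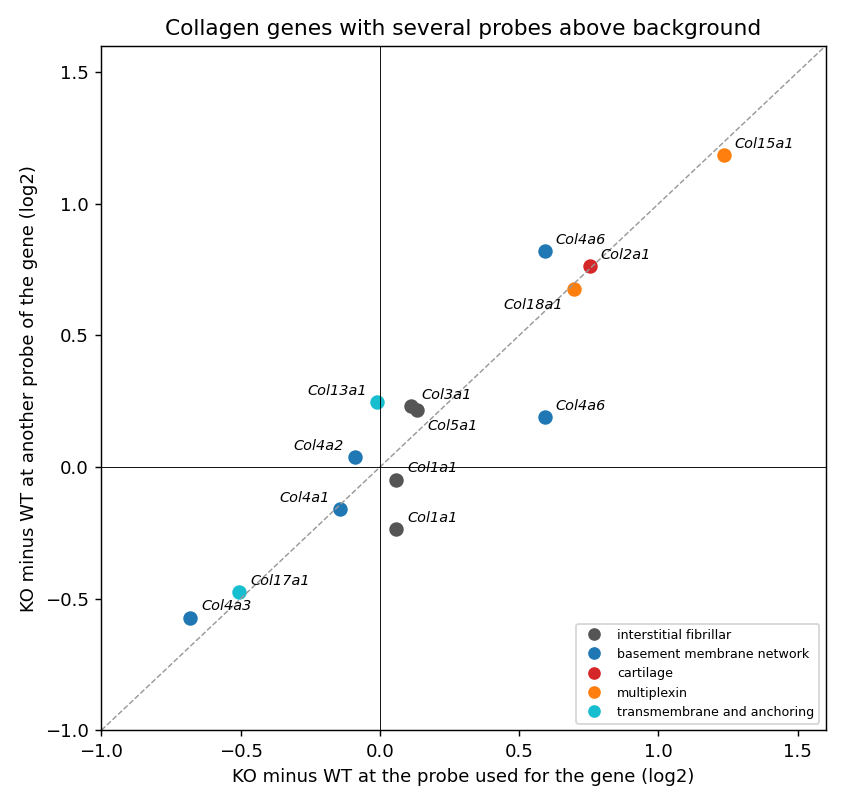
Difference between KO and WT lungs (KO minus WT, log2) at other probes of a collagen gene against the difference at the probe used for it, for the 14 other probes above background on all 6 arrays, coloured by class. The dashed line marks equal differences, and 11 of the 14 points lie within 0.25 of it.

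Most genes with several probes gave like differences. Other probes above background on all 6 arrays were available for 12 genes, 14 probes in all. Of these, 10 had the sign of the probe used and 11 lay within 0.25 of it. Col4a6 spanned the widest range among them, 0.19 to 0.82. The probes with the opposite sign belonged to Col1a1, Col4a2 and Col13a1, whose differences lay near 0.

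RefSeq listed upstream windows for 25 of the 32 genes, 28 windows in all. Their median GC content was 59.8%, against 52.4% over all windows. A GC box was found in 57.1% of the collagen windows and 32.7% of all windows, a CCAAT box in 39.3% and 33.8%, a TATA box in 17.9% and 12.4%, and the SOX letters in 7.14% and 25.2%. Among classes, a TATA box was in 2 of 6 cartilage windows and in none of the 5 basement membrane windows. These shares describe the letters and were not tested.

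Genes that act on collagen were not called either. Of 18 genes for folding and modifying collagen in the cell, all were tested, 11 with positive differences, and the median was 0.05. Plod2, a lysyl hydroxylase that prepares cross-links, had 0.28, 0.73 and 0.41 in KO lungs and -0.20, -0.43 and -0.06 in WT lungs. The groups did not overlap (difference 0.71, SE 0.16, limma adjusted p = 0.0686). P4ha3, a prolyl hydroxylase subunit, differed by 1.05 (limma adjusted p = 0.171), and was above background on 2 of 3 WT arrays. Colgalt2 had the opposite sign, with a difference of -0.49 (limma adjusted p = 0.208) and -0.44 at another probe. Of 14 genes for removing propeptides and cross-linking, 9 were tested, 5 with negative differences (median -0.12). Loxl1, a lysyl oxidase that cross-links elastin and collagen, had 2.02, 1.68 and 2.01 in KO lungs and 2.64, 2.53 and 2.22 in WT lungs (difference -0.56, limma adjusted p = 0.0976). Pcolce2, which helps remove the propeptide, differed by -0.69 (limma adjusted p = 0.101). Both were lower in each KO array than in any WT array. Bmp1 had the opposite sign, with a difference of 0.33 (limma adjusted p = 0.221) and overlapping groups.

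Of 15 proteoglycans and regulators that bind fibrils, 14 were tested and 9 had positive differences (median 0.05). Thbs2, a thrombospondin that regulates fibril assembly, had -1.78, -1.30 and -1.46 in KO lungs and -2.30, -2.73 and -2.26 in WT lungs. The groups did not overlap, and the difference of 0.92 (SE 0.18) was not called (limma adjusted p = 0.0596). Dpt, which speeds fibril formation, differed by -0.41 (limma adjusted p = 0.144), and Fn1, fibronectin, by -0.28 (limma adjusted p = 0.196). Neither had overlapping groups. Of 11 collagen receptors, 9 were tested and 7 had positive differences (median 0.15). Itga11, the integrin chain for fibrillar collagen on fibroblasts, differed by 0.46 (limma adjusted p = 0.0933), and Mrc2, an uptake receptor for collagen, by 0.42 (limma adjusted p = 0.145). The groups did not overlap for either receptor. Gp6, the collagen receptor of platelets, differed by -0.54 (limma adjusted p = 0.151), also without overlap. Of all features, 31.5% had no overlap in either direction. Of 13 genes for breaking collagen down, 11 were tested and 6 had negative differences (median -0.16). Among these, Ctsk, a collagen-cleaving cathepsin, differed by -0.57 (limma adjusted p = 0.162), without overlap. Mmp9, a gelatinase, differed by -0.59 (limma adjusted p = 0.211). Mmp14, a membrane collagenase, differed by -0.24, and by 0.19 at another probe.

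Partners of collagen in the basement membrane leaned to higher KO levels, and none was called. Of 20 such genes, 18 were tested, 17 of them with positive differences, and the median was 0.18. Over all features 9942 of 19867 were positive, and 6018 of the 13939 with a symbol. With arrays scaled to their median, all features had a median of -0.14, so the lean would be smaller in that scaling. Frem2, which links epithelium to the tissue below, had 1.93, 1.79 and 1.79 in KO lungs and 1.35, 1.00 and 1.28 in WT lungs. The groups did not overlap (difference 0.63, SE 0.13, limma adjusted p = 0.0599), and a second probe gave 0.57. Lama3, a laminin chain of epithelial basement membrane, differed by 0.36 (limma adjusted p = 0.159), and Lama1, a laminin chain of early embryonic basement membrane, by 0.52 (limma adjusted p = 0.191). Of 12 collagen genes outside the 32, 9 were tested, 7 with positive differences and a median of 0.22, and none was called. Col24a1, a minor fibrillar collagen, differed by 0.43 (limma adjusted p = 0.15), and its groups did not overlap. Col27a1 and Col22a1 differed by 0.28 and 0.53 (limma adjusted p = 0.217 and 0.274), with overlapping groups. Markers of the cells that make most interstitial collagen were not called either. Of 11 fibroblast markers tested, 6 had negative differences (median -0.15), and their summed level was 204.8 to 219.5 in KO lungs and 196.8 to 219.4 in WT lungs. Of these 11, 5 were lower in each KO array than in any WT array, where the background was 15.0% of all features. Mfap5, a microfibril protein, had the smallest p of them and differed by -1.28 (limma adjusted p = 0.0521). Thy1, a surface protein of fibroblasts, differed by -0.45 (limma adjusted p = 0.105), and Meox2, a homeobox factor, by -0.49 (limma adjusted p = 0.129).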

How the data were processed

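RNA of 3 KO and 3 WT lungs was measured on 1 Agilent Whole Mouse Genome array each, with 1 colour. Per the file headers, the deposited intensity of each spot came from Agilent Feature Extraction 10.7.3.1, which subtracts background, and no scaling between arrays was applied. Log2 values in a second deposited table were made by the authors with GeneSpring GX 11, per the design text. Set against the scanner values, its columns matched quantile-normalized log2 intensities minus the WT median (correlation 0.992 to 0.997). Its column medians were 0.0108, -0.00703 and -0.000876 for the KO arrays and 0 for each WT array. It was used as an alternative.

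Control spots aside, an array had 43379 spots of 41174 probes. Between 77 and 110 spots per array carried an outlier flag and were left out, and none was saturated. Log2 intensities were set relative to the 75th percentile of the array, spots of a probe were averaged, and the 26668 probes well above background on every array of either group, or of both, were kept. Symbols came from RefSeq accessions on GRCm38.p6, which named 64.8% of the probes, and a gene's value is that of its probe of highest mean over the 6 arrays. KO and WT arrays were tested with lmFit and eBayes of limma 3.58.1 (R 4.3.3), two-sided and without covariates, with Benjamini-Hochberg adjustment over all features. The scripts were tested on simulated data with independent noise on each array. Slide, file number and sex were not simulated, so that test does not cover them. Precision is limited by the number of arrays.

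The collagen genes and all lists were chosen with earlier results of these data known, so counts over a list are given as descriptions with no test. Every collagen gene tested is named, and from each pathway list and the cartilage and fibroblast markers the called genes and up to 3 genes of smallest p are named. Sox9, Cytl1 and Comp were added after their values were seen. Alternatives covered the scaling, the background correction, the filter, the probe per gene, the test, the slide, sex-linked signal and leaving out each array. Motifs were counted in the 250 bases before each RefSeq start.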

Additional observations from a re-analysis of the deposited data

How the results depend on the processing

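The 29 collagen genes were refitted under 23 alternatives, 1 of which, normexp background correction on the median signal with outlying local backgrounds replaced, was chosen after seeing the data. The planned normexp fit on the mean signal was not run, because the files hold no such column. The 6 cartilage genes, Col15a1, Col18a1, Col14a1, Col16a1, Col4a5 and Col4a6 stayed positive, and Col4a3, Col4a4, Col5a3, Col8a1 and Col17a1 negative, in all 23. Apart from Col5a3 and Col8a1, the groups of these genes did not overlap. Their sign was thus fixed in advance in fits that leave out an array or add a block to the same levels. Fits with another scaling or background correction could change it. Another choice of probe could change it only where a second probe passed the filter. Col9a1, Col9a2, Col9a3, Col11a1, Col11a2, Col14a1, Col16a1, Col4a4, Col4a5 and Col5a3 had no such probe. The difference of Col9a2 lay between 0.66 and 0.90, and it was called in 13 of the 23 alternatives. Its limma adjusted p ran from 0.0176 to 0.135 when 1 array was left out. Fits with another choice of probe are among the 13, but left the levels of Col9a2 unchanged. The difference of Col15a1 lay between 0.91 and 1.43, and it was called in 6 of the 23.

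The number of collagen genes called was 1 as reported. It was 2 with the 75th percentile taken over probes above background on all arrays, with the filter set to all 6 arrays, with an intensity trend and with normexp, and in each case Col15a1 joined Col9a2. It was 6 with array weights. It was 0 with no filter. With slide as a block only KO 3 is compared with WT arrays, and with the number in the raw file names as a block only KO 3 with WT 3. With a term for Y-linked signal, or only the arrays without it, KO arrays are compared with WT 3 only. Col9a2 was not called in these fits, and a missing call there cannot be told from a lack of arrays. Leaving out 1 array gave 0 to 6 called collagen genes, with 6 without WT 3. In the fit without WT 3, genotype and sex cannot be told apart. Over all features the count was 267 as reported, 424 with the 75th percentile over probes above background, 28 with no filter, 173 with the filter at 3 of 6 arrays and 1125 with array weights. It was 16 with slide as a block and 23 with the term for Y-linked signal. With the file number as a block, or with only the arrays without Y-linked signal, missing calls cannot be read either, for the reason given above. Leaving out 1 array gave 35 called features (without WT 1) to 1919 (without WT 3), with 57 without WT 2, 60 without KO 1, 77 without KO 2 and 416 without KO 3. Of the genes in the pathway lists, 1 was called with an intensity trend, 3 with array weights, 1 with normexp and 0 to 6 when 1 array was left out, 6 of them without WT 3. The median difference of the collagen genes was -0.030 with arrays scaled to their median, 0.23 with the probe of largest interquartile range, 0.21 with slide as a block and 0.20 with the file number as a block. The causes of these shifts were not tested.

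With the replicate number as a block, 48 features and 0 collagen genes were called. The numbers gave no sign of pairing, with correlations of deviations of -0.02, 0.04 and 0.03 between KO and WT arrays of the same number.

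The sign changed for the genes below, none of them called in either fit. Their reported differences lay between -0.14 and 0.13, other than -0.59 for Mmp9, 0.28 for Col7a1, -0.24 for Mmp14 and -0.19 for Col6a1. With arrays scaled to their median, Col1a1 had -0.083, Col3a1 -0.030, Col5a1 -0.0089 and Col5a2 -0.11. With the 75th percentile over probes above background, Col1a2 had 0.016, Col8a2 0.050 and Col13a1 0.042. With quantile normalization, Col6a2 had 0.011 and Col13a1 0.081. With the authors' deposited table, Col6a2 had 0.010 and Col13a1 0.081. With the probe of largest interquartile range, Col1a1 had -0.24, Col4a2 0.037, Col13a1 0.25 and Mmp14 0.19. With the mean of all probes, Col1a1 had -0.075 and Col13a1 0.12. With slide as a block, Col6a2 had 0.028. With the file number as a block, Col4a1 had 0.052, Col4a2 0.20, Col5a2 -0.066, Col6a1 0.21, Col6a2 0.25, Col7a1 -0.081, Col13a1 0.023, Mmp9 0.15 and Sox9 0.20. With the term for Y-linked signal, and with only the arrays without it, Col4a2 had 0.046, Col5a2 -0.17, Col6a2 0.072, Col13a1 0.11 and Sox9 0.13. With normexp, Col5a2 had -0.0059 and Col13a1 0.028. Leaving out 1 array gave -0.0030 to 0.10 for Col1a1, -0.16 to 8.6e-05 for Col4a2, -0.096 to 0.13 for Col5a2, -0.13 to 0.11 for Col8a2, -0.067 to 0.039 for Col13a1 and -0.23 to 0.13 for Sox9.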
